A study of Aspergillus nidulans with 7 samples.

Results

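Among 10639 genes of the filamentous fungus Aspergillus nidulans, 101 stood far higher 48 h after mycelium was exposed to air than at any of the 6 earlier times. These 101 genes, 0.949% of the table, were chosen from the measured values themselves. A member had a level of at least 20 CPM at 48 h (CPM is the count scaled to the total of its library), and at least 4 times its highest CPM at 0, 6, 12, 18, 24 and 30 h. Genes of 3 groups of identifiers (AN7804 to AN7825, AN8379 to AN8384, and AN8979) had been left out by name. Of the 28 left-out genes in the table, 6 passed both cuts. Since the rule used the counts of all 7 libraries, the 48 h levels and their folds are given as a description, without a test.

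The 7 mRNA libraries came from the wild-type strain FGSC A4, with 1 library per time and no drug or engineered allele in any of them. Conidia (asexual spores) were first grown as a bubbled submerged culture in minimal medium. The mycelium was then caught on filter paper and either frozen directly (0 h) or kept moist on the filter, in constant light, for 6, 12, 18, 24, 30 or 48 h. By the labels, filters of 24 to 48 h carried mature conidiophores, the stalks that bear chains of conidia. A filter at 48 h therefore held hyphae, stalks and spores together, and more cells of one kind and more RNA per cell cannot be told apart. Duplicate filters were collected, but the sources used here do not say if they were pooled. There is no replicate check of any value, and the intervals given cover counting error alone.

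As background, conidiation in this fungus runs through a cascade of regulators (brlA, abaA, wetA), and the spores receive a hydrophobic coat and a pigment. Filamentous fungi often carry the genes for a small-molecule product side by side, and the genes of such a cluster are often transcribed together. Many fungi also secrete peptidases, and oligopeptide transporters take up the short peptides that these release.

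Library totals lay between 4186063 counts (12 h) and 9899347 counts (30 h), and the 48 h library held 9018102. A gene without counts could still have a level of up to 0.717 CPM in the 12 h library and of up to 0.333 CPM in the 48 h library. The scale mattered, since the trimmed-mean (TMM) factors were 0.459 at 0 h, 1.311 at 30 h and 1.395 at 48 h. With TMM-scaled CPM 60 of the 101 genes met the rule, and with upper quartile factors 64 did. The size of the list hung on the 30 h library: without it 269 genes met the rule, and without any 1 of the other 5 it was met by 101 to 105.

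By library totals, the 48 h library had the most genes under this rule. Applied to each time in turn, with the left-out names kept in, the same cuts found 37 genes at 0 h, 6 at 6 h, 1 at 24 h, 107 at 48 h and 0 at 12, 18 or 30 h. Those 107 were 1.01% of the genes in the table. The count per time was not made on the TMM scale, which raises 0 h levels and lowers those of 48 h. The 48 h library also followed an interval of 18 h, against 6 h for the others.

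**Figure D1:**
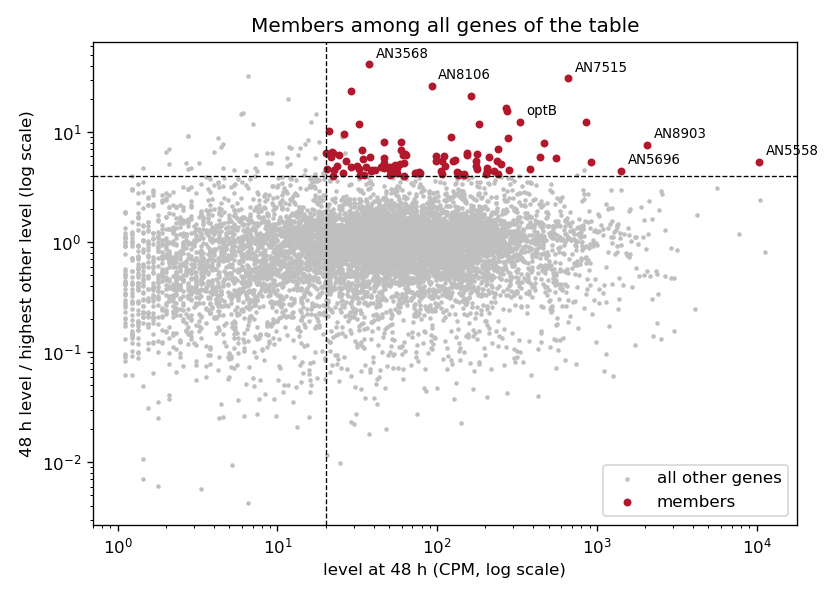
Each point is a gene of the table with over 1 CPM at 48 h, placed by its 48 h level (x axis, CPM, log scale) and by that level divided by its highest level at the 6 other times (y axis, log scale). Dashed lines mark the cuts at 20 CPM and 4-fold, red points are the 101 members, and the grey points past both cuts are the 6 genes left out by name.

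Members spanned a wide range of abundance. Their 48 h levels ran from 20.2 to 10376 CPM with a median of 76.96 CPM, and 46 members reached 100 CPM or more. The fold over the highest earlier level ran from 4.01 to 41.2 with a median of 5.24, and was 10 or more in 12 members. Over all 6645 genes with at least 20 CPM at 48 h, the median of that fold was 1.02. Just inside the fold cut lay AN9456 (4.01), AN9272 (4.02) and AN9174 (4.04), and just outside lay AN9248 (3.995), AN1628 (3.91) and AN11081 (3.90). Just inside the level cut lay AN2320, AN8127 and AN0546 with 20.2, 20.5 and 20.96 CPM, and just outside lay AN9137, AN8432 and AN2781 with 19.4, 19.2 and 18.2 CPM.

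Together the members held 0.0667% of all counts at 0 h and 0.0994%, 0.118%, 0.207% and 0.211% at 6, 12, 18 and 24 h. Their share was 0.450% at 30 h (exact 95% interval 0.445 to 0.454%) and 2.72% at 48 h (2.71 to 2.73%). A single gene, AN5558, made up 1.04% of the 48 h library, and the other 100 members 1.68%. The median member stood at 0.43 CPM at 0 h, and at 1.31, 2.15, 5.14, 7.46 and 13.4 CPM from 6 to 30 h. The median over all genes was 8.34 CPM (0 h), 32.7 CPM (30 h) and 36.9 CPM (48 h), so that the median member lay below the median gene until 30 h and above it at 48 h.

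**Figure D2:**
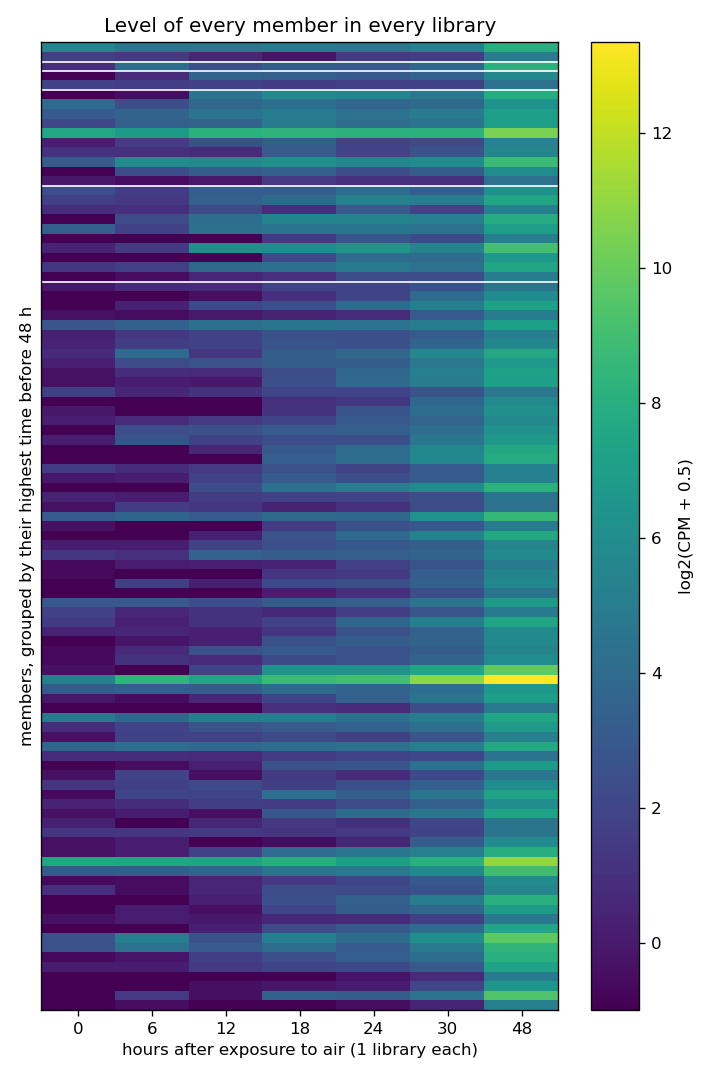
Each row is 1 of the 101 members and each column 1 library (x axis, hours after exposure to air). Colour gives log2(CPM + 0.5), and white lines separate the members by the time of their highest level before 48 h, from 0 h at the top to 30 h at the bottom, the block that holds 76 of the 101.

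The most abundant member was AN5558 (contig 93, 55769 to 57150), which a list of autolysis and wall breakdown genes held by its identifier. It stood at 38.4 CPM at 0 h, at 328, 172, 438 and 518 CPM from 6 to 24 h, at 1924 CPM at 30 h and at 10376 CPM at 48 h. The level dipped at 12 h and was otherwise higher at each later time. Its 48 h level was 5.39 times that of 30 h (counting interval 5.31 to 5.48). The other 6 genes of that list were no members. Their folds were 0.14 (chiA1), 0.52 (AN4871), 0.62 (eng2), 1.45 (AN1414), 1.90 (AN1502) and 2.45 (mep20). One of them, the chitinase gene chiA1, was highest in the submerged culture, with 4527 CPM (0 h), 1514 CPM (30 h) and 612 CPM (48 h), and mep20, a metalloprotease gene by its symbol, had a fold of 2.45.

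Of the 101 members 3 carry a symbol in the reference table, against 778 of all 10639 genes. dppV, named for dipeptidyl peptidase V, a secreted peptidase (contig 41, 178374 to 180904), stood at 8.34, 60.4, 57.3, 73.8, 46.9 and 60.8 CPM from 0 to 30 h and at 438 CPM at 48 h. After 0 h it kept to a narrow band up to 30 h, and its 48 h level was 5.94 times the highest of these (counting interval 5.33 to 6.63). optB, an oligopeptide transporter gene by its symbol (contig 126, 592294 to 594678), stood at 5.32, 19.8, 8.12, 17.5, 8.24 and 26.9 CPM and then at 330.3 CPM. It moved up and down before 48 h and was then 12.3 times its highest earlier level (10.8 to 13.99). eglD, which in this species encodes an expansin-like protein of the conidial wall (contig 26, 2726 to 3799), stood at 1.87, 1.495, 10.99, 9.04, 9.62 and 11.7 CPM and then at 55.8 CPM. It held a plateau from 12 to 30 h, and its fold at 48 h was 4.76 (3.88 to 5.88). On the TMM scale these folds were 4.56 for dppV, 10.5 for optB and 3.79 for eglD, which puts eglD below the cut.

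**Figure D3:**
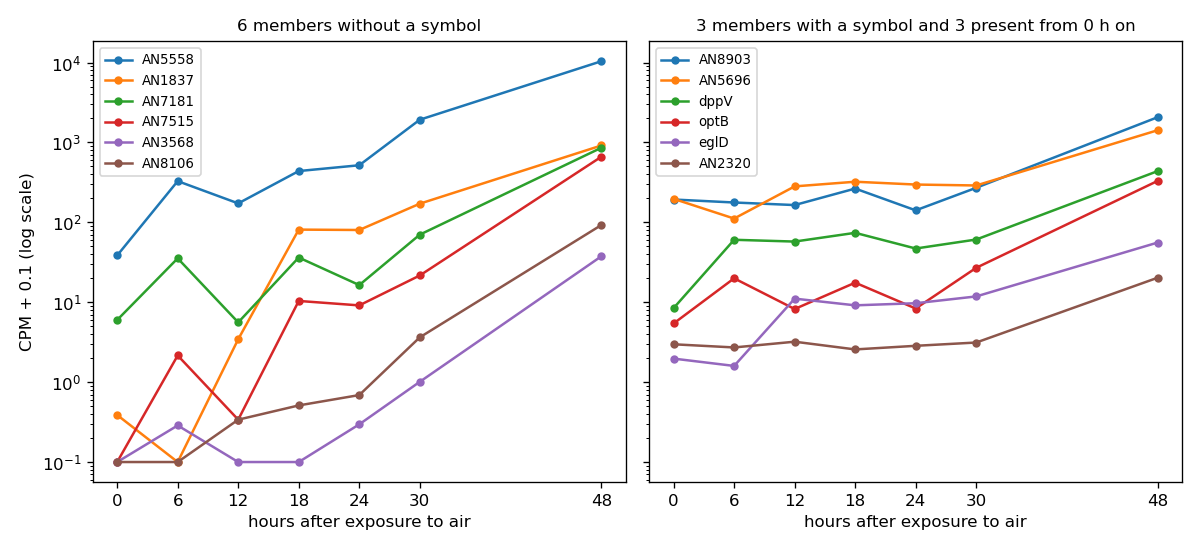
Lines give CPM + 0.1 (y axis, log scale) by hours after exposure to air (x axis) for 12 members, with 1 library per point. AN3568 and AN8106 stay below 4 CPM until 30 h, AN5558 climbs from 38.4 CPM with a dip at 12 h, and AN2320 stays between 2.47 and 3.11 CPM until 30 h and reaches 20.2 CPM at 48 h.

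Other abundant members differed in course. AN8903 (contig 161, 102659 to 104710) was present throughout, at 193, 177, 164, 264, 141 and 271 CPM before 48 h and at 2071 CPM then. AN1837 (contig 29, 108839 to 109386) had 0.29, 0 and 3.34 CPM up to 12 h, 80.97, 80.1 and 171 CPM up to 30 h, and 915 CPM at 48 h, a course of steps. AN7181 (contig 119, 142431 to 143930) alternated, with 5.90, 35.3, 5.49, 36.2, 16.3 and 70.0 CPM up to 30 h and 857 CPM at 48 h. AN2383 (contig 37, 92278 to 94204) was higher at each time than at the last, with 7.77, 8.78, 12.2, 23.2, 24.9 and 58.5 CPM and then 468 CPM, a fold of 8.00. AN8890 (contig 161, 69537 to 70802) had 0 counts at 0 and 6 h, then 4.78, 18.1, 35.1 and 61.8 CPM, and 279.9 CPM at 48 h.

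AN5696 (contig 96, 272335 to 272688) was at 111 to 322 CPM before 48 h and at 1422 CPM then. It had the highest authors' RPKM (a level per length) of all members at 48 h, 19753, but its model counts over just 72 bases, and it is the 1 member with no row in the reference table. Among members with a model over 300 bases, AN5558 (8561), AN1837 (2243) and AN8903 (1097) led by the authors' RPKM.

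The 5 largest folds belonged to genes with 9 (AN3568) to 213 (AN7515) counts at 30 h. In the other members with a fold of 10 or more, the 30 h counts ran from 14 (AN0546) to 693 (AN7181). AN3568 (contig 59, 80555 to 81588) had 0, 1, 0, 0, 1 and 9 counts from 0 to 30 h and 338 counts, or 37.5 CPM, at 48 h. Its fold was 41.2, with a wide counting interval of 21.5 to 90.9. AN7515 (contig 126, 307301 to 308113) stood at 0, 2.06, 0.24, 10.3, 9.03 and 21.5 CPM and then at 662 CPM, a fold of 30.8 (26.8 to 35.4). AN8106 (contig 136, 275580 to 276625) had 0, 0, 1, 2, 3 and 35 counts and then 833, or 92.4 CPM, a fold of 26.1 (18.6 to 37.8). AN5251 and AN3554 followed with folds of 23.7 and 21.1. These 5 were the members with a fold of 20 or more.

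AN8445 and AN0338 reached much the same 48 h level by different courses. AN8445 (contig 150, 201574 to 203159) peaked early, with 1.44, 16.3, 5.26, 9.04, 7.46 and 13.8 CPM and then 269 CPM, a fold of 16.6 (13.4 to 20.8). AN0338 (contig 6, 140130 to 142068) climbed at every step, with 0.14, 0.37, 2.63, 5.14, 9.22 and 17.8 CPM and then 275 CPM, a fold of 15.5 (13.3 to 18.2). Like AN0338, 25 members (24.8%) had a higher level at each step from 6 to 30 h, against 10.7% of all genes, and the rule itself fixed the step to 48 h. No count was recorded at 0 h for 27 members (26.7%, against 11.7% of all genes), at 6 h for 19, at 12 h for 12, at 18 h for 2 and at 24 or 30 h for 0. Neither comparison with all genes is independent of the rule, which capped each earlier level against that of 48 h.

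A smaller set was level until 30 h when scaled by library totals. In 8 members the highest and lowest of the 6 earlier CPM differed by less than 3-fold. They were AN2110, AN2320, AN4109, AN5696, AN6658, AN6847, AN7270 and AN8903. AN6658 stood at 49.3 CPM at 0 h, between 24.1 and 38.5 CPM from 6 to 30 h, and at 251 CPM at 48 h. The earlier levels need not be level on the TMM scale, where this spread was not computed. On that scale their fitted changes over 0 to 30 h ran from -1.64 log2 units (AN6658) to 0.0006 (AN6847). TMM scaling raises the 0 h levels and lowered the fold of all 8. It was then under 4 in 6 of them, with 1.68 for AN6658, 2.21 for AN2110, 2.31 for AN2320, 2.38 for AN5696, 3.53 for AN8903 and 3.61 for AN4109. AN6847 (5.55) and AN7270 (4.07) stayed above the cut.

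Whether the members were already moving before 48 h was asked without the 48 h library. The slope on hours over the 6 libraries from 0 to 30 h was tested for all genes with edgeR's quasi-likelihood test. The rule had used these libraries through the highest of their values, so the test is not wholly independent of it. Of the 101 members 99 passed the count filter in these 6 libraries, 41 rose and 0 fell at a Benjamini-Hochberg adjusted p under 0.05. Over all 9624 genes tested, 6.67% rose and 7.98% fell. One member, AN6658, had a negative slope with an unadjusted p under 0.05 by edgeR, and DESeq2 called 51 members as rising and 0 as falling. Of the 41 that rose, 37 had their highest earlier level at 30 h and 4 at 24 h. Their median fold at 48 h was 5.24, and that of the 58 that did not pass the test was 5.14.

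The slope calls rested on few libraries. Without the 18, 24 or 30 h library 27, 23 and 19 members rose, and the share of all genes that rose was then 2.70%, 1.98% and 1.75%. Without the 6 h library 43 members rose and 3 fell. Scaled by totals alone 61 members rose, 2110 of all genes rose and 172 fell, against 642 and 768 with TMM. The median change of all genes over 0 to 30 h was 1.32 log2 units by totals and 0.12 with TMM, and that of the members tested 3.78 and 2.78.

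The lowest adjusted p-values before 48 h belonged to AN9249, AN9272, AN11205, AN3856, AN2722 and AN9174. AN9249 (contig 169, 34491 to 35253) had 0, 0, 3, 29, 81 and 433 counts from 0 to 30 h and 1859 at 48 h (edgeR adjusted p = 0.0019), higher at each time from 12 h on. AN9272 and AN11205 were also at 0 counts at 0 and 6 h (edgeR adjusted p = 0.00226 and 0.00242), and so was AN2722 (edgeR adjusted p = 0.00284). AN3856 rose by 5.67 log2 units ± 0.65 (SE, 6 libraries; edgeR adjusted p = 0.00254), but its start-to-stop span overlaps that of AN10470 by 1847 bases. AN3856 counts over 1084 bases of a span of 5671, and the part of shared reads in its level was not tested. AN9174 rose by 6.14 ± 0.77 (SE, 6 libraries; edgeR adjusted p = 0.00322). These 6 calls held without any 1 of the 6 libraries.

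Of the 12 members with the highest 48 h level, 4 rose before 48 h by edgeR. AN8890 (edgeR adjusted p = 0.0117), AN1837 (edgeR adjusted p = 0.0244) and AN7515 (edgeR adjusted p = 0.0468) were among the 4. AN5558 rose by 3.07 ± 0.75 (SE, 6 libraries; edgeR adjusted p = 0.0314), and this call was lost when the 0, 18, 24 or 30 h library was left out, with edgeR adjusted p = 0.107, 0.0707, 0.0568 and 0.246. The slopes of dppV (0.32 ± 0.74), optB (0.09 ± 0.70) and eglD (1.39 ± 0.83) missed the threshold, with edgeR adjusted p = 0.786, 0.941 and 0.261. AN3568 and AN5251 had too few counts before 48 h to be tested.

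The timing of the members was compared on either side of 30 h. The highest earlier level was that of 30 h in 76 members, of 24 h in 10, of 18 h in 10 and of an earlier time in 5. From 24 to 30 h the median change of the members, on the scale of log2(CPM + 0.5), was 0.91 in 6 h. From 30 to 48 h it was 2.43 in 18 h, which is 0.81 per 6 h, a rate on which the rule itself sets a floor. Over all 6645 genes with at least 20 CPM at 48 h, the medians were 0.10 and 0.07 per 6 h. Of the 101 members 51 changed faster before 30 h than after it and 50 changed faster after it. The floor set by the rule enters this split, which was not counted over all genes. With TMM scaling 46 changed faster before 30 h.

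Individual genes lay at both ends of this range. AN5430 went from 0.98 CPM at 24 h to 8.69 CPM by 30 h, a change of 2.63, and then by 0.90 per 6 h to 59.2 CPM. AN8150, from 14.1 to 82.1 CPM, also changed faster before 30 h (2.50) than after it (0.74 per 6 h). AN7515 had the highest rate after 30 h of all members, 1.64 per 6 h, against 1.21 before. In 12 members, a count not made over all genes, the level at 30 h was below that of 24 h. The longest model of the list, AN11191, was one of these: it stood at 67.6, 63.5, 95.2 and 43.3 CPM from 12 to 30 h and then at 555 CPM.

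**Figure D4:**
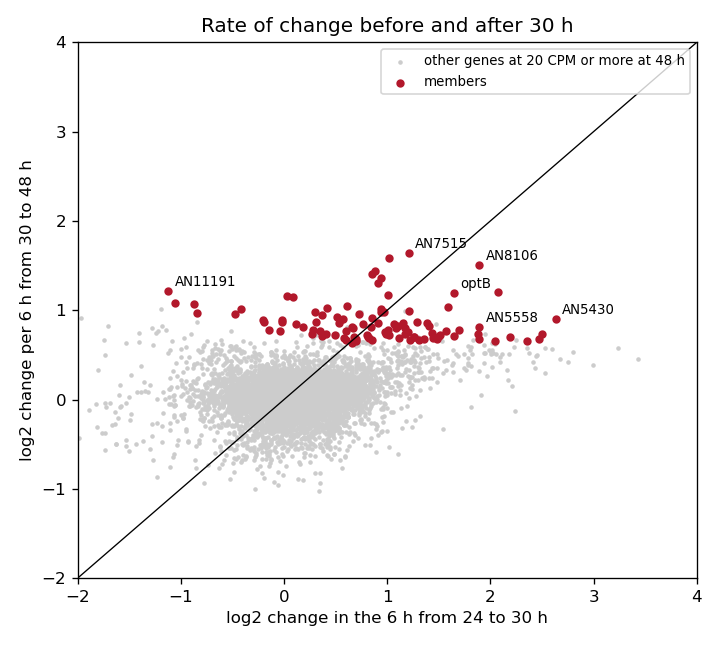
Each red point is a member and each grey point another gene with at least 20 CPM at 48 h, with the log2 change from 24 to 30 h on the x axis and the log2 change per 6 h from 30 to 48 h on the y axis, both on the log2(CPM + 0.5) scale. The diagonal marks equal rates, with 51 members below it and 50 above, and AN5430 lies farthest to the right of the members, at 2.63.

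Some members lay close together on the contigs, a property that the rule did not use. The members fell on 53 of the 226 contigs of the table, and 27 of the 101 had another member as an immediate neighbour. Neither count was made for other gene sets of that size. The genes next to a member that were not members themselves were also often higher at 48 h. Of the 133 such neighbours with at least 15 counts at 48 h, 48 (36.1%) stood at least 2-fold above their highest earlier level, against 6.3% of all 8911 genes with as many counts that were not members. Without the members of the 5 stretches described next, the share was 29.1%, and on the TMM scale it was 32.3% against 4.32%. No strand setting is given in the sources used here, and the part that reads from an adjoining transcript have in these values was not tested.

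Allowing up to 2 other genes between members, 31 members lay in 13 groups, 4 of 3 or more members and 9 pairs, and 70 lay alone. Such groups were not counted for other gene sets. A pair of the larger groups adjoined on contig 150, where 7 members lay within 25.3 kb (160832 to 186150, flanking genes included). In contig order they were AN8433, AN8434, AN8435, AN8437, AN8438, AN8439 and AN11079, with 48 h levels of 241, 33.9, 34.5, 32.5, 135, 154 and 122 CPM. At 0 h each had between 0 and 2 counts, and all 7 rose over 0 to 30 h by edgeR. AN8433, the most abundant, had 2, 3, 12, 76, 123 and 343 counts up to 30 h and 2172 at 48 h. AN8438 had 2, 3, 2, 25, 74, 317 and 1215 counts over the 7 times (edgeR adjusted p = 0.00371 over 0 to 30 h). Both were near 0 until 12 h and then climbed at each time.

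The genes between and beside them did not all follow. AN8436, in the middle of the contig 150 stretch, was lower at 48 h, with 6.91 CPM (6 h), 4.65 CPM (30 h) and 1.33 CPM (48 h). Its neighbours AN11084 and AN11613 had 0 counts in all 7 libraries. At the edges, AN8432 went from 4.55 CPM (30 h) to 19.2 CPM (48 h), just under the level cut, and AN11081 from 64.2 to 251 CPM, a fold of 3.90. AN11081 differed from the 7 in being present from the start, with 160 counts at 0 h.

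**Figure D5:**
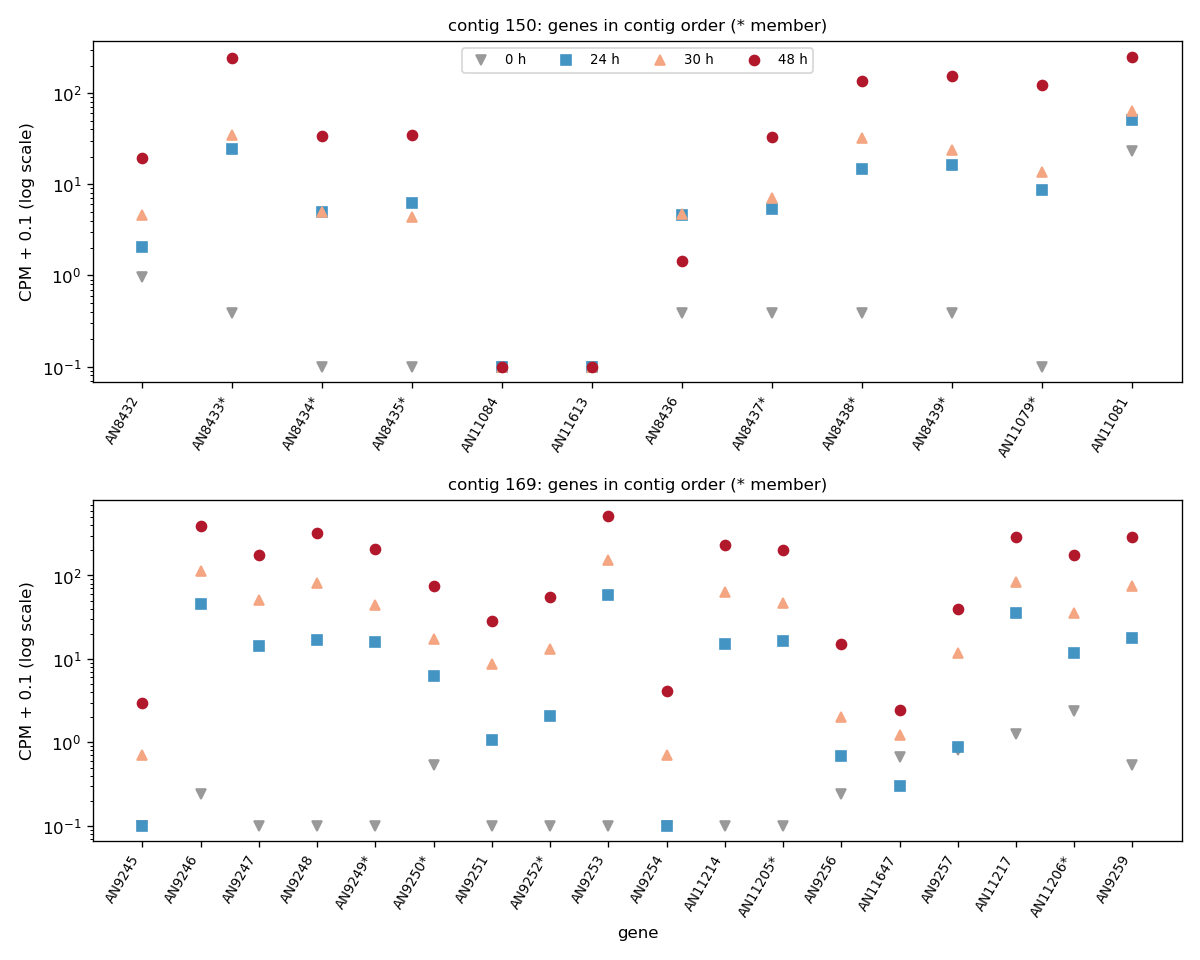
Genes of 2 stretches in contig order (x axis, * marks a member), with CPM + 0.1 at 0, 24, 30 and 48 h (y axis, log scale). On contig 150 the 48 h value lies above the 30 h value in every gene with counts except AN8436, and on contig 169 it does so in all 18 genes.

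On contig 169, 5 members (AN9249, AN9250, AN9252, AN11205 and AN11206) lay among 18 genes within 36.3 kb (26773 to 63121). All 18 were highest at 48 h and next highest at 30 h. The 14 of them with at least 20 CPM at 48 h had folds between 3.37 and 4.95, so the 4-fold cut divided a stretch whose genes had much the same fold. AN9253, the most abundant, stood at 0, 0, 0.96, 22.6, 58.9, 153 and 516 CPM and was no member, with a fold of 3.37. AN9248, which went from 81.8 to 327 CPM between 30 and 48 h, missed the fold cut by the smallest margin of all genes. At 0 h 10 of the 18 had no count. On the TMM scale AN9250 and AN9252 were below the cut too (3.99 and 3.98).

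A stretch on contig 136 held genes that came on late. AN8105, AN8106, AN11037, AN11049 and AN8108 (270380 to 283094) had 0 counts at 0 and 6 h, and at 48 h they stood at 17.5, 92.4, 11.6, 182 and 3.22 CPM. Of these AN8106 and AN11049 were members, with folds of 26.1 and 11.8. AN8105 (14.5) and AN11037 (19.8) had folds of that size but stayed under 20 CPM. Between 12 and 30 h AN11049 was the most abundant of the 5, with 15.5 CPM at 30 h.

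On contig 167 a different course was shared by 6 neighbouring genes (142828 to 159521). AN11191 and AN11199 were members, and AN11198, AN9218, AN9219 and AN9220 had folds of 2.10 to 2.94. All 6 had come on by 12 h, with 17.0 to 127 CPM then, after 0 to 2.44 CPM at 0 h. All 6 were lower at 30 h than at 24 h, and all 6 were highest at 48 h. AN9219 led, with 903 CPM (24 h), 711 CPM (30 h) and 1897 CPM (48 h). On the TMM scale AN11191 stayed above the cut (5.08) and AN11199 did not (3.18).

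On contig 59, AN3551, AN3552 and AN3554 were members and AN3553 between them was not (30938 to 42424). The members had 16, 9 and 4 counts at 0 h, and their folds at 48 h were 4.44, 5.50 and 21.1. AN3554 went from 7.68 to 162 CPM between 30 and 48 h. AN3553 reached 12.0 CPM at 48 h, 3.81 times its level of 24 h. Neighbours thus differed in fold by more than their counting error, since the interval was 16.7 to 26.9 for AN3554 and 4.71 to 6.46 for AN3552.

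The pairs were AN10238 with AN1837, AN10390 with AN10403, AN5558 with AN5559, AN8106 with AN11049, AN8349 with AN11076, AN8624 with AN8625, AN8656 with AN8657, AN11154 with AN11153, and AN11191 with AN11199. Partners could differ widely in level. AN5559, next to AN5558, went from 12.4 to 52.8 CPM between 30 and 48 h, a fold of 4.25 beside 5.39 for AN5558. AN10238, next to AN1837, reached 62.4 CPM beside 915 CPM. AN11154 and AN11153 reached much the same level, 129 and 125 CPM, but AN11154 was present from 0 h (9.78 CPM) while AN11153 stood at 0.43 CPM then.

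In model length the members were much like other genes. The median was 1242 bases in members and 1257 bases in all genes with a length, and 15.8% of members and 15.9% of all those genes were shorter than 600 bases. The range in members was 72 to 7377 bases, and 3 members had 5000 bases or more (AN11191, AN6431 and AN8150). AN6431 had the lowest authors' RPKM of the members at 48 h (4.49), at 32.5 CPM after 0.41 to 2.73 CPM.

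The share of members on lists of known processes was near that of the whole table, with 2 of 169 listed genes (1.18%) beside 0.949% of the table. In 13 lists built from reference symbols and identifiers, eglD was 1 of 19 genes of plant polysaccharide degradation. That list does not match its product as given above, an expansin-like protein of the conidial wall. AN5558 was 1 of 7 genes of autolysis and wall breakdown, and the other 11 lists held 0 members. The lists included none of the 28 genes left out by name, 6 of which passed both cuts, nor any member of the 5 stretches described above, so the 0 for secondary metabolite genes does not speak of these. The 7 conidium and conidiophore markers were all highest at 48 h but stayed below the cut, with folds of 2.26 for brlA, 2.88 for abaA, 2.09 for wetA, 2.39 for rodA, 2.59 for dewA, 2.47 for yA and 1.73 for ivoB. Among genes at 20 CPM or more, 8 of 10 genes of spore wall hydrophobins and pigments had a fold of at least 2, with a median of 2.53, beside 1.02 over all genes. Of the 13 central regulators of conidiation 3 did, with a median of 1.08. The medians were 1.01 for sexual development, 0.52 for wall synthesis and 0.45 for stress tolerance. Over 18 genes of the secondary metabolite list, some without a symbol, the median was 0.88. That list also held the protein kinase genes pkcA and pkaC, so this median is not of secondary metabolite genes alone. A list of cytochrome P450 and redox genes, taken by symbol alone, held cyp3, cyp4 and cyp5 and had a median of 1.35. Their models count over 402, 654 and 705 bases, and the symbols do not establish that function. The lists of nitrogen use, carbon use, iron, and ion transport had medians of 0.76, 0.65, 0.73 and 0.87 and 0 genes with a fold of 2.

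Marker levels for other cell types moved over the same interval. The summed level of the 7 conidium and conidiophore markers was 42.3 CPM at 0 h, 29.2, 126, 1226, 2108 and 5304 CPM from 6 to 30 h, and 12579 CPM at 48 h, of which rodA, the rodlet hydrophobin, held 10546 CPM. The 6 markers of sexual tissue summed to 449.5 CPM at 0 h, 511, 954, 1474, 903 and 1458 CPM from 6 to 30 h, and 1781 CPM at 48 h. Of the latter esdC, an early sexual development gene, held 1597 CPM at 48 h, after 1316 CPM at 30 h. Between 30 and 48 h AN7388 (cpeA) went from 93.9 to 141 CPM and AN7349 (mutA) from 4.14 to 5.21 CPM. Over the same interval AN6923 (hxtA) went from 34.3 to 27.1 CPM. The mating-type gene MAT1 had just 3 counts at 30 h and 4 at 48 h (0.30 and 0.44 CPM), too few to show a change. The level of ppgA, a pheromone precursor gene, went from 9.29 to 10.5 CPM. MAT2, on the sexual development list but not among the 6 markers, went from 4.75 to 1.33 CPM. The part of these marker levels in the members' levels was not tested.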

How the data were processed

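The authors deposited 1 table that gives each gene a whole-number count, a signal (reads per nucleotide) and an RPKM value in each library, per the file headers. The counts deposited by the authors were used for every level and test. The RPKM values deposited by the authors were within 1% of values recomputed from counts, lengths and column totals in 99.95% of 68858 comparisons. The signal deposited by the authors gave the length each model counts over. The submitters' processing notes name CASAVA but give it no role. Aligner, build, annotation and strand setting were not given in the sources used here, and overlapping genes and paralogs cannot be separated. Contig positions are those of the table. Symbols came from an ASM1142v1 reference table that held 10455 of the 10639 identifiers and 100 of the 101 members.

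The labels gave the time of each library, and each of the 21 value columns names such a time. The members, the lists and the tests were chosen with earlier results of these data known. Intervals of folds and shares are exact at 95%. The slope over 0 to 30 h used edgeR 4.0.16 (R 4.3.3), TMM and robust quasi-likelihood fits, for genes with at least 1 CPM in at least 1 library and 15 counts in all, with Benjamini-Hochberg adjustment at 0.05. DESeq2 1.42.0 was the alternative. On simulated counts for this slope (9478 genes), 54% of changes of 2 log2 units and 100% of changes of 4 were recovered, 8 of 162 calls were false, and unchanged data gave 0 calls. The simulation gave every gene the same dispersion, made changes linear in log2 and had no shift in composition between libraries. It changed only genes above a set mean level, so its rates need not hold for members with few counts. Python 3.11.15 with pandas 2.3.3 and SciPy 1.17.1 computed the levels, and matplotlib 3.10.9 drew the plots. Genes are named if they have a symbol or are on a list, are among the 12 highest by level or fold, are among the 6 with the lowest adjusted p of the slope, lie next to a cut, or lie in a group of 3 or more members. Pairs, flat courses, rates, lengths and the other genes of the stretches were chosen after their values were seen. The planned comparison of proteins was not run.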

Additional observations from a re-analysis of the deposited data

How the results depend on the processing

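The number of members depended on the scaling and the cuts: 60 with TMM, 64 with upper quartile factors, 167 at 3-fold and 17 at 8-fold, against 101. The 60, the 64 and the 17 were all among the 101, and the 167 held all 101. Leaving out each earlier library in turn gave 101 to 269 members, the last without the 30 h library. The median fold was 4.49 with TMM and 4.50 with upper quartile factors. Over 0 to 30 h the members that rose numbered 19 to 43 when 1 library was left out, and those that fell 0 to 3, or 1 with time as log2(hours + 6). Over all genes, 164 to 694 then rose and 151 to 1143 fell. By totals 2110 rose and 172 fell, with upper quartile factors 457 fell, with DESeq2 1003 rose and 1276 fell, and with log2(hours + 6) 1309 rose and 1372 fell. Without AN5558 the members held 1.68% of the 48 h library. Of 110 recomputed single-gene slopes 106 kept their side of the threshold and 4, all of AN5558, lost the call. The causes were not tested. The alternatives for rates, neighbours and AN5558 were chosen after seeing the data. The planned promoter motif shares were not run, since no promoter sequences were used here. No paired analysis was possible because each time has 1 library. Few counts at the highest earlier time widen the interval of a fold, as for AN3568 with 9 counts at 30 h (21.5 to 90.9).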
